A study of Mus musculus with 20 samples.

Results

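Mouse interscapular brown adipose tissue (iBAT) holds stromal cells that express Pdgfra, the gene for a platelet-derived growth factor receptor, and the cells described here are the ASC2-type adipose stromal cells, marked by Pi16 and Dpp4. Members were chosen by sums of expected counts in Lin- libraries, the fraction left after magnetic removal of lineage-positive cells. A cell was taken where Pdgfra, Col1a1 and Dcn summed to at least 5, Pecam1, Cdh5 and Ptprc to less than 1, and Pi16, Dpp4, Cd55, Dact2, Sema3c and Krtdap to at least 3. Cells were left out where Gdf10, C7, Clec11a, Epha3, Itgbl1 and Fmo2 summed to 2 or more, where Lrrc15 reached 0.5, or where 8 cell cycle genes summed to 4 or more. The rule found 11221 of 60538 Lin- cells, or 18.5%, and 29.1% of the 38611 stromal cells by the same Pdgfra, Col1a1 and Dcn sum. All 20 libraries together held 110742 cells that passed the limits on mitochondrial counts, total counts and genes.

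Pi16- and Dpp4-expressing fibroblasts lie in the connective tissue around fat depots and blood vessels in many tissues. They are described as multipotent progenitors that can give rise to other fibroblasts and to committed preadipocytes. Dpp4 encodes a membrane peptidase, Pi16 a protein of the CAP family, Cd55 a regulator of complement, and Sema3c a secreted semaphorin. In brown fat, cold acts through noradrenaline on adipocyte beta-adrenergic receptors, and CL316,243 (CL) is an agonist of the β3-adrenergic receptor.

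The experiment had 10 pairs of Lin- and Lin+ libraries, each from 3 to 4 pooled mice aged 8 to 14 weeks. C57BL/6J males (C57) were housed at 24 °C (RT), were kept in the cold at 6 °C for 4 days (COLD) or received CL by infusion at 0.75 nmol/hour for 4 days at 24 °C, with 2 replicates of each. Females of an Adrb1 fl/fl line without (WT) or with (KO) 1 Pdgfra-CreER allele gave 1 library each at RT and in COLD. All mice of that line had received tamoxifen, and the Cre acts in PDGFRA-expressing cells, not in ASC2 cells alone. Strain, sex and tamoxifen cannot be told apart between the experiments, and the RT libraries of the Adrb1 line were made with kit version 3 while all others used version 2. In that line the treatments were also collected on separate days. Each library is a pool, so p-values measure the spread between pools.

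ASC2 cells numbered 493 to 2086 per library, with total counts in them of 819915 to 9503474 and median counts per cell of 1662 to 4429. Levels below are CPM, the counts of a gene scaled to a common total of all counts summed over the ASC2 cells of a library. Of the barcodes in the Lin- files, 25.4% to 90.9% passed the limits, the lowest in C57 RT replicate 2. No pair of libraries shared more than 3.32% of the barcodes of the smaller one. Scrublet, a doublet caller, called a median of 0.286% of cells per library, too few to rely on, so doublets were left in and the 662 ASC2 cells in the top 6% of doublet scores were removed as an alternative. The targeted gene Adrb1 had 0 to 7 counts per library in ASC2 cells. In the Adrb1 line it had 2 counts in WT RT, 1 in KO RT, 2 in WT COLD and 3 in KO COLD, so its deletion could not be checked in these cells.

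The marker sums chose the members, and the levels of those markers are a description. Pi16 was detected in 88.1% to 98.7% of ASC2 cells per library, Sema3c in 53.5% to 90.6%, Cd55 in 62.9% to 85.2% and Dpp4 in 51.8% to 84.5%. Krtdap was detected in 11.1% to 42.5% and Dact2 in 11.1% to 38.3%. At least 3 of the 6 markers were detected in 70.2% to 90.1% of cells. These shares depend on depth, and a cell with no count of a gene may still express it. Near the limit, 520 members had a marker sum from 3 to under 4, and 680 cells with a sum from 2 to under 3 lay just outside it. The limit on Lrrc15 removed 374 cells, of which 164 were in WT RT and 131 in C57 CL replicate 1. The cell cycle limit removed 248, and 1515 cells had both ASC2 and ASC3 marker sums.

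The label was checked against 30 further genes of the Pi16 progenitor type that the rule did not use. Levels in CPM plus 1 were set against 3 classes gated from the same libraries by their own sums, the ASC1 cells (10801), the ASC3 cells (3614) and endothelial cells (4051). The classes were cut from the same measurements, so these ratios are a description with no test. In every one of the 10 libraries, 26 of the 30 genes were highest in ASC2 cells. The exceptions were Gap43 (highest in 9 libraries), Limch1 (8), Heg1 (4) and Ly6c1 (0), and the latter 2 had median levels of 378 and 2477 CPM in endothelial cells. Aldh1a3, which encodes a retinaldehyde dehydrogenase, had 138 to 279 CPM in ASC2 cells and a median of 48.1 times the next class. Bmp7, a ligand of the bone morphogenetic protein family, had 34.8 to 129 CPM and a median ratio of 26.8. Cd248, the gene for endosialin, had 769 to 1145 CPM and a median ratio of 5.50, and the ligand Wnt2 had 48.9 to 125 CPM and 5.33.

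**Figure D1:**
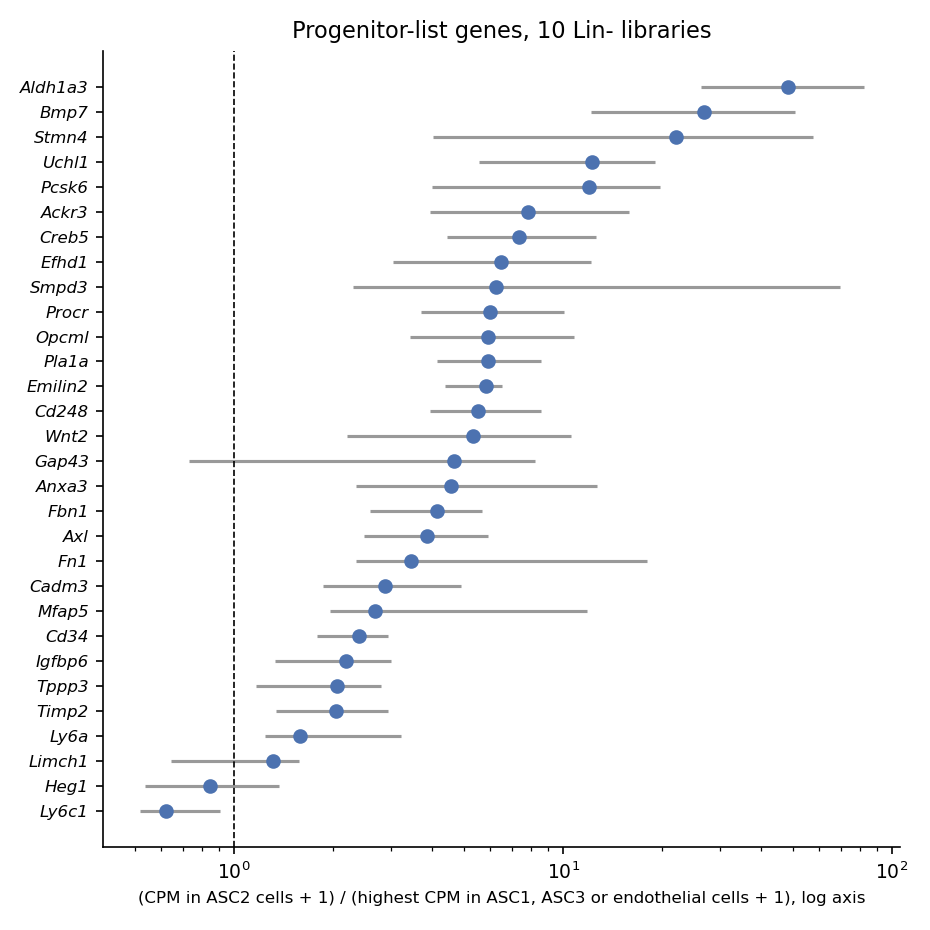
Level of 30 Pi16 progenitor genes in ASC2 cells over that in the next highest of ASC1, ASC3 and endothelial cells (log axis, points are medians of 10 libraries, lines run from the lowest to the highest library). A line wholly to the right of 1 marks a gene that was highest in ASC2 cells in all 10 libraries, which holds for 26 of the 30 genes.

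Across the whole table, 6422 genes had at least 20 CPM in the median ASC2 library, and 381 of these were highest in ASC2 cells in all 10 libraries. A stricter group of 86 genes had at least 20 CPM and at least 2-fold the next class in every library, among them 6 rule genes and 18 of the 30 progenitor genes. Outside the rule, the largest median ratios were those of Dmkn (85.6), Akr1c18 (58.7), Sbsn (52.9) and Aldh1a3 (48.1). Dmkn, Sbsn and the rule gene Krtdap are neighbouring genes known from the epidermis, and Akr1c18 encodes an aldo-keto reductase that breaks down progesterone. Adamts16, a secreted metalloprotease, had a median ratio of 28.1 and the ligand Wnt10b one of 25.1.

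The marker levels differed between libraries. Pi16 stood at 7889 and 11337 CPM in C57 RT, 8183 and 7515 in C57 COLD, and 5474 and 6287 in C57 CL. In the Adrb1 line it was 2545 in WT RT and 2920 in KO RT against 6618 in WT COLD and 7673 in KO COLD. The version 3 RT libraries were the lowest of all 10, also for Krtdap at 60.9 and 58.3 CPM against 164 to 673 elsewhere. The same pair was the highest for Fn1, the gene for fibronectin, with 9266 CPM in WT RT and 5192 in KO RT against 1262 to 2816 in the others. Smpd3, a sphingomyelinase gene, was likewise at 1367 and 787 CPM there. The kit, the collection day, the line and the temperature of these libraries cannot be told apart.

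As a share of stromal cells, with each cell thinned to 1000 counts and the marker sums applied again, ASC2 cells made up 28.8% and 18.6% in C57 RT, 19.9% and 18.8% in C57 COLD, and 25.2% and 35.6% in C57 CL. In the Adrb1 line the share was 36.0% in WT RT, 31.9% in KO RT, 23.3% in WT COLD and 29.5% in KO COLD. The groups overlapped. Over both lines the share was 22.9% ± 4.80 (SD, n = 4) in COLD and 28.8% ± 7.45 (SD, n = 4) at RT, a difference of -5.97 percentage points with an exact two-sided permutation p of 0.286. In C57 mice CL gave 30.4% ± 7.36 (SD, n = 2) against 23.7% ± 7.25 (SD, n = 2) at RT, with an exact permutation p of 0.667 where the smallest possible is 0.3333. With cells thinned to 2000 counts, and shallower cells left out, the cold difference was -12.4 points (exact permutation p = 0.0571). RT stood at 32.5% ± 6.28 and COLD at 20.1% ± 8.65 (SD, n = 4 each). This cut selects by depth. C57 COLD replicate 1 gave 8.57% (323 of 3771 cells), and its ASC2 cells had a median of 1677 counts against 2944 in its stromal cells. C57 RT replicate 2 kept 293 stromal cells. The CL difference was 11.9 points without C57 CL replicate 1, 1.48 without C57 CL replicate 2, 11.8 without C57 RT replicate 1 and 1.56 without C57 RT replicate 2. Neither comparison passed the test at either depth. Shares before thinning ranged from 18.7% to 43.8%, and cell recovery from the tissue can set them.

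**Figure D2:**
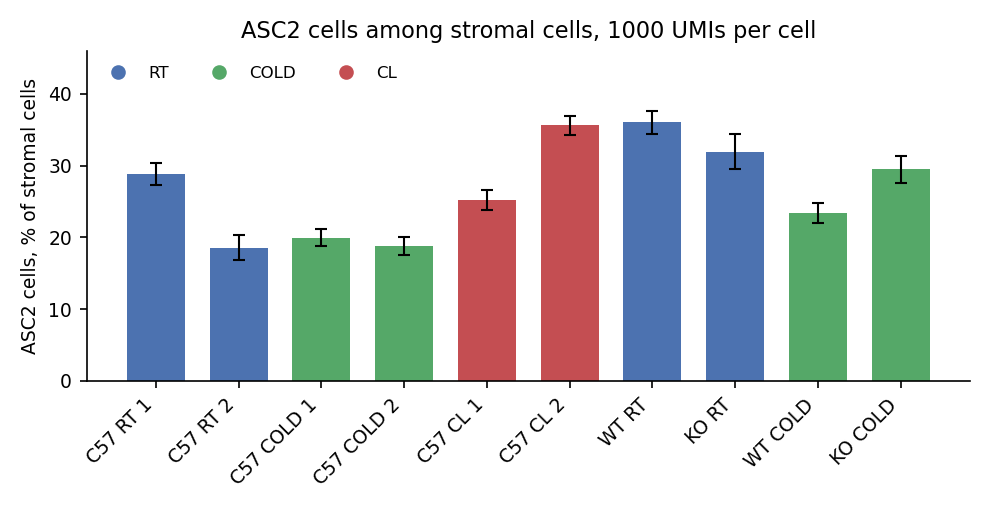
ASC2 cells as a percentage of stromal cells in each of the 10 Lin- libraries after thinning to 1000 counts (bars, with 95% exact binomial intervals that cover counting error only). RT libraries spread from 18.6% to 36.0% and COLD libraries from 18.8% to 29.5%, so the conditions overlap.

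The first comparison asks how ASC2 cells of C57 mice differed after 4 days of cold. Members of a list of 36 interferon genes made up 15 of the 35 rises, and haptoglobin and the complement genes C4b and C2 rose too. The falls included the protease Adamts16 and immunoglobulin heavy chain RNA (Ighm). edgeR's quasi-likelihood test with Benjamini-Hochberg adjustment called 45 of 11166 genes, 0.403% of those tested. Of these, 35 (0.313%) were higher and 10 (0.0896%) lower. With the replicate number as a block, since same-numbered C57 libraries came from the same experiment, the count was 113, and all 45 calls were kept. The calls rest on all 4 libraries. Without C57 RT replicate 1, 5 genes were called, of which 1 was among the 45, and without C57 RT replicate 2 there were 0. Without C57 COLD replicate 1 there were 17, with 16 of the 45 kept, and without C57 COLD replicate 2 there were 7, with 3 kept.

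Interferons are secreted antiviral proteins whose receptors act through STAT and IRF transcription factors, and many of the genes they switch on carry the interferon-stimulated response element upstream. The sequences of 4 called list genes, chosen among those that hold the motif, are shown to place it. Each is the 250 bases before the gene's start in RefSeq (GRCm38.p6), outside the transcript, 5′ to 3′ on the plus strand, where all 4 genes lie. Capitals mark GAAANNGAAA or its reverse complement TTTCNNTTTC, searched on both strands and here found in the TTTCNNTTTC direction.
Ifit3, chr19:34583279-34583528: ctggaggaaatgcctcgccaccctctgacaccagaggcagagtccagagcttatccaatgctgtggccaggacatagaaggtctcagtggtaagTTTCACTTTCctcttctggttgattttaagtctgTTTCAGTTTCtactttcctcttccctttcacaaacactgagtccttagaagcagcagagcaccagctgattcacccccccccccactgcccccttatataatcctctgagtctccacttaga
Ifit1, chr19:34640639-34640888: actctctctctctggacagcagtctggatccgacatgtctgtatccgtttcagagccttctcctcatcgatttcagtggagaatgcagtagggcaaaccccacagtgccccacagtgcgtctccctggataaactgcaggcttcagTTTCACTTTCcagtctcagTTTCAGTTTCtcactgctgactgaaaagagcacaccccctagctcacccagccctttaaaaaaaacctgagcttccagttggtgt
Gbp7, chr3:142530086-142530335: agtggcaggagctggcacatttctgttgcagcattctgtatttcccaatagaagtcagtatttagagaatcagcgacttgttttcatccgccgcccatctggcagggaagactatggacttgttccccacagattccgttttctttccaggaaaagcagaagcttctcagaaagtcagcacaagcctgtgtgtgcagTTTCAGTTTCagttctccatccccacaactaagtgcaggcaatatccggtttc
Gbp2, chr3:142620413-142620662: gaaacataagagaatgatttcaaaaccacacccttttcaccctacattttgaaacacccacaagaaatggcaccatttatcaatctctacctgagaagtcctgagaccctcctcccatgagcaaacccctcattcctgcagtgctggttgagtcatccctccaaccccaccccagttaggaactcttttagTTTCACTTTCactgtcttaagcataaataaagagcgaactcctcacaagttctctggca

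Ifit3 and Ifit1 each held 2 copies of the motif and Gbp7 and Gbp2 1 each. Holding the motif was a condition for being shown. Ifi44 and Irf7, called with larger changes than these 4, held 0 copies in this window. Of 36 interferon list genes 27 had a promoter in the table, and 15 of these (55.6%) held the motif, against 279 of 8711 tested genes with a promoter (3.20%) and 2.98% of all 32851 windows of that length. Of the 35 genes called higher after cold 24 were matched and 10 (41.7%) held it. For the 15 of these on the interferon list, 12 were matched and 6 (50%) held it. Among the 10 called lower 6 were matched and 0 held it, which 6 genes cannot set apart from 3.20%. A match is a string of letters in this window and does not show binding.

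Irf7, a transcription factor that amplifies interferon responses, was at 42.9 and 56.3 CPM in C57 RT and at 526 and 701 CPM in C57 COLD. In the Adrb1 line it was at 31.5 (WT) and 21.9 CPM (KO) at RT and 132 and 242 CPM in COLD. All 4 COLD libraries lay above all 4 RT libraries, and the C57 difference was 3.71 ± 0.42 on the log2 scale (SE, adjusted p = 0.0206, edgeR quasi-likelihood test).

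Ifit3, which encodes an antiviral RNA-associated protein, was at 18.2 and 29.3 CPM in C57 RT and 184 and 237 CPM in C57 COLD. It was at 18.3 and 19.6 CPM in WT RT and KO RT and at 108 and 192 CPM in WT COLD and KO COLD. No RT library reached a COLD library, and the C57 log2 difference was 3.27 ± 0.33 (SE, adjusted p = 0.018, edgeR). Its relative Ifit1 went from 40.6 and 28.9 CPM to 231 and 341 CPM, a log2 difference of 2.97 ± 0.43 (adjusted p = 0.036, edgeR).

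Genes with almost no RT counts also rose. Ifi44, an interferon-induced gene, was at 0.514 and 0 CPM in C57 RT and at 17.0 and 18.2 CPM in C57 COLD. Its summed counts were 2 and 101, a ratio of 41.7 with a 95% counting interval of 11.3 to 349. Ubd, a ubiquitin-like gene, had 2 and 68 counts, a ratio of 28.1 (7.48 to 237). The intervals cover counting error only.

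Guanylate-binding proteins are interferon-induced GTPases of cell-autonomous defence. Gbp3 was at 21.2 and 31.6 CPM in C57 RT against 110 and 122 CPM in C57 COLD, Gbp7 at 25.5 and 31.0 against 82.9 and 89.0, and Gbp2 at 49.9 and 83.8 against 129 and 147. The log2 differences were 2.24, 1.64 and 1.17, all called. Gbp7 was at 55.6 CPM in WT RT against 49.8 CPM in WT COLD, and at 49.7 CPM in KO RT against 96.0 CPM in KO COLD. Rtp4 and Slfn2, both interferon-inducible, rose by 2.35 and 2.34 on the log2 scale.

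Of the 36 interferon list genes tested in C57 mice, 15 rose, 0 fell and 21 were not called, and the median log2 difference was 1.77 against 0.00 over all genes. For 35 of the 36 no RT library reached either COLD library, which held for 12.6% of all genes tested. With the replicate block 18 were called, and with DESeq2 25. Isg15, at 122 and 60.6 CPM in C57 RT and 470 and 507 CPM in C57 COLD, was not called (log2 2.33 ± 0.60, adjusted p = 0.205, edgeR), nor was Bst2 at 203 and 163 against 928 and 1342 CPM (adjusted p = 0.0708).

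**Figure D3:**
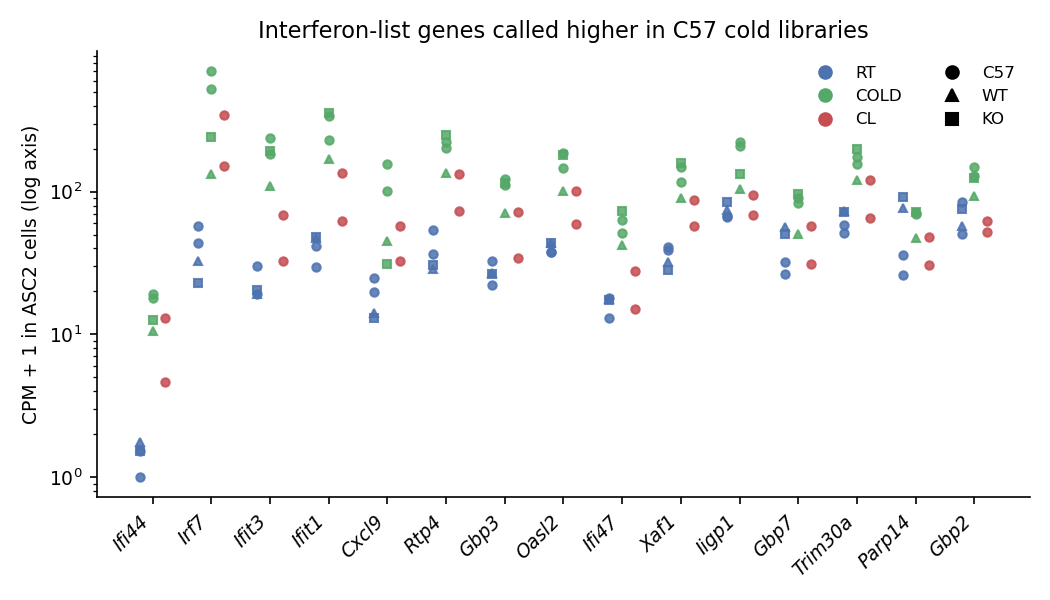
Level in CPM plus 1 (log axis) of the interferon list genes called higher after cold in C57 mice, in the summed ASC2 cells of each of the 10 Lin- libraries, by condition. For Irf7 and Ifit3 all 4 COLD libraries lie above all 4 RT libraries, and both CL libraries lie above all 4 RT libraries.

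The share of ASC2 cells with at least 2 counts of interferon list genes, after thinning to 1000 counts, was 66.5% and 67.5% in C57 RT and 93.8% and 97.4% in C57 COLD. It was 55.3% and 50.9% in WT RT and KO RT and 81.1% and 84.0% in WT COLD and KO COLD. Most ASC2 cells of each COLD library thus held at least 2 such counts, and so did most of each RT library. The list's most abundant gene was Ifi27l2a, with 6371 and 1703 summed counts in C57 RT and 7416 and 29866 in C57 COLD before thinning. Its part in these shares was not tested. COLD averaged 89.1% ± 7.76 (SD, n = 4) and RT 60.0% ± 8.23 (SD, n = 4), a difference of 29.1 percentage points (exact two-sided permutation p = 0.0286, the smallest possible with 4 against 4). Without thinning the difference was 8.27 points. Endothelial cells of the same libraries, with median depths of 1280 to 3700 counts against 1662 to 4429 in ASC2 cells, gave 82.3% ± 11.5 in COLD and 82.5% ± 4.59 at RT, and the exact permutation p was 1. At a limit of 4 counts the endothelial shares were 60.2% ± 16.2 in COLD and 52.8% ± 11.8 at RT (n = 4 each, exact permutation p = 0.486), against 75.8% ± 13.4 and 25.8% ± 10.8 in ASC2 cells. In C57 mice alone endothelial cells gave 91.8% ± 4.99 in COLD and 86.4% ± 1.05 at RT at the limit of 2 counts (SD, n = 2 each, exact permutation p = 0.333, the smallest possible). In endothelial cells edgeR called 0 of 9874 genes for cold in C57 mice (0%), with 751 at an unadjusted p under 0.05 and no other tool run, and the interferon list had a median log2 difference of 0.73 with 31 of 35 positive. Endothelial cells express interferon genes themselves, so their share is not a measure of free RNA, and their difference from ASC2 cells was not tested. The rise was not particular to ASC2 cells among stromal classes. In C57 mice the list's median log2 ratio of mean CPM plus 1, COLD to RT, was 1.71 in ASC2 cells. It was 1.67 in ASC1, 1.88 in ASC3 and 0.71 in endothelial cells.

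**Figure D4:**
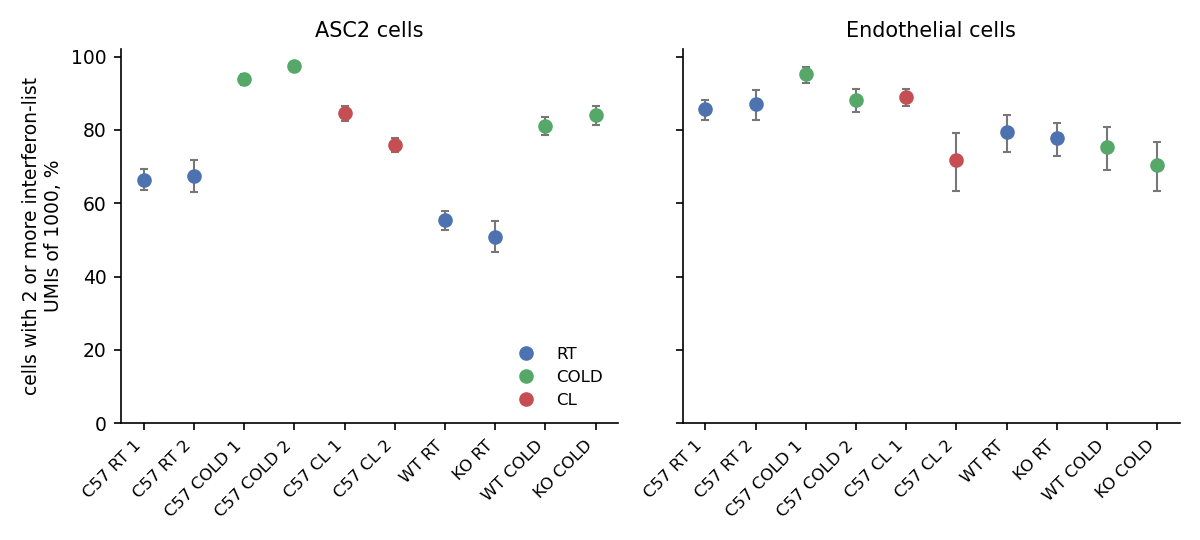
Percentage of cells with at least 2 counts of interferon list genes after thinning to 1000 counts, in ASC2 cells and in endothelial cells of each library (1 point per library). In ASC2 cells the RT libraries span 50.9% to 67.5% and the COLD libraries 81.1% to 97.4%.

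MHC class I and its loading machinery, which display peptides to T cells, are also known interferon targets. All 18 such genes had positive log2 differences after cold in C57 mice, with a median of 0.96, and edgeR called none, with 10 at an unadjusted p under 0.05 and 4 called by DESeq2. B2m, the invariant chain, was at 2358 and 764 CPM at RT against 5864 and 9135 CPM in COLD, a span between the RT replicates that left it at adjusted p = 0.421 (edgeR). With the replicate block 2 of the 18 were called.

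Acute phase genes encode plasma proteins made in inflammation, mostly by the liver. Hp, haptoglobin, was at 2.30 and 6.49 CPM in C57 RT and 79.6 and 69.5 CPM in C57 COLD. In the Adrb1 line it was at 0 and 0.502 CPM at RT against 46.2 (WT) and 11.0 CPM (KO) in COLD, again without overlap. The C57 log2 difference was 4.49 ± 0.33 (SE, adjusted p = 0.00359, edgeR).

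Saa3, a serum amyloid A gene, had 1 count in each C57 RT library and 432 and 723 in C57 COLD. The ratio of the summed levels was 477, with a counting interval of 132 to 3943, and edgeR's adjusted p was 0.0662 (0.0194 with the replicate block). In the Adrb1 line it had 0 counts in both RT libraries and 519 and 313 in COLD, at least 314-fold higher against a floor of 3 counts over the group. Even so, Saa3 was found in few cells. After thinning, 3.50% and 3.43% of ASC2 cells in C57 COLD held a Saa3 count against 1.81% and 0.463% of endothelial cells, at the depths given above. Of 17 acute phase genes tested, 1 (Hp) was called, and the median log2 difference was 0.69.

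The complement component genes C4b and C2 rose. C4b was at 62.3 and 54.3 CPM in C57 RT and 426 and 425 CPM in C57 COLD. In WT and KO it was at 99.3 and 64.0 CPM at RT against 201 and 313 CPM in COLD. The groups did not overlap in either line, and the C57 log2 difference was 2.86 ± 0.33 (SE, adjusted p = 0.0206, edgeR). C2 was at 16.1 and 22.6 CPM against 50.8 and 67.2 CPM, a log2 difference of 1.69 ± 0.27 (adjusted p = 0.0462). In WT it was lower in COLD, at 23.7 CPM against 27.8 CPM at RT, and in KO it was at 31.9 against 19.6 CPM. C3, the central component, was at 3521 and 2400 CPM against 4032 and 3010 CPM and was not called. C4b and C2 were the called members of 10 complement genes tested, and the list's median log2 difference was 0.85.

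Among chemokines Cxcl9, a ligand of CXCR3 on T cells that is also on the interferon list, was the called member of 17 tested. It was at 18.9 and 23.9 CPM in C57 RT and 99.6 and 156 CPM in C57 COLD, a log2 difference of 2.63 ± 0.33 (adjusted p = 0.0274, edgeR). Macrophage markers summed to 41.1 to 90.9 CPM in ASC2 cells at RT and 71.3 to 140 CPM in COLD, with 3 to 9 of the 13 at 0 in each library. Their part in these values was not tested.

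Prg4, which encodes the lubricating proteoglycan lubricin, was at 21.3 and 64.8 CPM in C57 RT, 197 and 267 CPM in C57 COLD, 44.4 and 21.7 CPM in WT RT and KO RT, and 295 and 260 CPM in WT COLD and KO COLD. COLD lay above RT throughout, and the C57 log2 difference was 2.69 ± 0.40 (SE, adjusted p = 0.0387, edgeR). Other named rises were Lgals3bp, a secreted galectin-binding glycoprotein, at 106 and 122 CPM against 548 and 703 CPM, and Adm, the vasodilator adrenomedullin, at 52.7 and 81.2 against 155 and 142 CPM. Their log2 differences were 2.51 ± 0.35 (adjusted p = 0.0349) and 1.23 ± 0.17 (adjusted p = 0.0328).

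Apoc1, an apolipoprotein gene, and Chchd10, a mitochondrial protein gene abundant in brown fat, were also called higher, from 1.51 and 0 to 25.7 and 14.4 CPM and from 3.23 and 1.65 to 34.8 and 23.4 CPM. The 13 brown adipocyte markers summed to 254 and 223 CPM in C57 RT and 1669 and 297 CPM in C57 COLD. In C57 mice 12 of the 13 were positive, against 50.5% of all genes tested, with a median log2 difference of 2.76. Markers with almost no RT counts, such as Adipoq, Ucp1 and Cidec (0 and 1), could only come out higher, so this count is a description. In the Adrb1 line the sum was 232 and 170 CPM in WT RT and KO RT against 276 and 150 CPM in WT COLD and KO COLD. Adipoq, the adiponectin gene, had 0 CPM in both C57 RT libraries and 82.8 and 6.80 CPM in C57 COLD. Ucp1, the uncoupling protein of brown fat, had 0 and 1.04 CPM against 38.5 and 13.4 CPM. The part of adipocyte RNA in these values was not tested.

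The 10 genes that fell in C57 mice were led by Ighm, the heavy chain of immunoglobulin M, at 29.5 and 43.1 CPM at RT against 3.49 and 1.61 CPM in COLD. It was at 13.4 and 8.23 CPM in WT RT and KO RT against 1.73 and 1.94 CPM in COLD. The groups were apart in both lines, and the C57 log2 difference was -3.75 ± 0.34 (SE, adjusted p = 0.0105, edgeR). Ighm is a gene of B cells, and the source of its RNA among ASC2 cells was not tested.

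Adamts16, whose levels relative to the other classes are given above, was at 99.9 and 107 CPM in C57 RT, 22.3 and 27.8 CPM in C57 COLD, 45.1 and 58.3 CPM in WT RT and KO RT, and 24.9 and 26.9 CPM in WT COLD and KO COLD. The C57 log2 difference was -2.01 ± 0.27 (SE, adjusted p = 0.0295, edgeR). Pthlh, which encodes parathyroid hormone-related protein, fell from 19.5 and 28.7 to 5.36 and 6.53 CPM, and Col6a6, a collagen VI chain, from 36.9 and 54.5 to 15 and 11.8 CPM. Podn, a leucine-rich proteoglycan gene, fell from 68.1 and 88.7 to 26.9 and 27.7 CPM, and the carboxypeptidase Cpz, known to act on Wnt signals, by 1.58 on the log2 scale. The steroid reductase gene Srd5a1, the glutathione transferase gene Gsta4, Crispld2 and Tmem158 made up the rest. Crispld2 went the other way in the Adrb1 line, at 10.4 and 11.0 CPM in WT RT and KO RT against 19.6 and 25.0 CPM in COLD. Gsta4 was at 3.17 CPM in WT RT against 8.77 CPM in WT COLD, and at 9.20 against 3.83 CPM in KO.

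Of the 30 progenitor genes, edgeR called 0 in C57 mice after cold, with 6 at an unadjusted p under 0.05, and DESeq2 called 1 higher and 2 lower. Of their differences 10 were positive and 20 negative, with a median of -0.24. The ligands Bmp7 (71.2 and 129 CPM at RT, 53.3 and 51.9 in COLD) and Wnt2 (71.9 and 122 against 48.9 and 55.5) did not overlap between the groups and had adjusted p of 0.215 and 0.183 (edgeR). Such separation downward held for 15 of the 30 and for 13.2% of all genes tested. Of 24 sterol synthesis genes 22 were negative with a median of -1.0, and edgeR called none, with 16 at an unadjusted p under 0.05 and 1 called by DESeq2.

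Taking C57 and Adrb1 line libraries into a single model over all experiments, with line and genotype in it, gave 791 calls of 11673 (6.78%), 384 higher (3.29%) and 407 lower (3.49%). In a fit with kit version as a term, chosen after the data were seen, the count was 47, with 36 higher and 11 lower. In that fit the cold estimate rests on the C57 libraries, since the kit and the collection day change with temperature in the Adrb1 line. Leaving out any 1 library of the Adrb1 line gave 106 to 113.

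Interferon list genes were called higher in 29 of 36 cases, with 0 lower and a median log2 difference of 1.86, and in 15 with the kit term. For 28 of the 36 all 4 COLD libraries lay above all 4 RT libraries, which held for 4.73% of all genes. WT COLD lay above WT RT for 30 of the 36 and KO COLD above KO RT for 33, against 50.4% and 46.9% of all genes tested. MHC class I genes gave 7 of 18 higher, chemokines 6 of 19, acute phase genes 6 of 17 and complement genes 3 of 10, with none lower. With the kit term these counts were 0, 1, 1 and 1. The chemokine Ccl8, which attracts monocytes, was at 37.4 to 81.4 CPM in the 4 RT libraries and 98.3 to 208 CPM in the 4 COLD libraries (log2 1.52 ± 0.29, adjusted p = 0.0168, edgeR, 0.155 with the kit term).

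Lcn2, the iron-binding protein lipocalin 2, was at 0.513, 0, 1.68 and 0 CPM at RT against 18.5, 19.7, 29.4 and 19.2 CPM in COLD. The 4 RT libraries lay far below the 4 COLD libraries, with a log2 difference of 4.73 ± 0.54 (adjusted p = 0.00181, edgeR, 0.0557 with the kit term). Serpina3n, a serine protease inhibitor, was at 10.9 to 30.2 CPM at RT against 50.8 to 101 CPM in COLD (1.77 ± 0.26, adjusted p = 0.00478, edgeR, 0.104 with the kit term).

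Of the 30 progenitor genes 2 rose and 2 fell, against 3.29% and 3.49% of all genes tested. Ly6a, which encodes the stem cell antigen Sca-1 and is itself interferon-inducible, was at 3033, 3933, 2064 and 2073 CPM at RT against 7317, 8911, 6441 and 7914 CPM in COLD (1.55 ± 0.35, adjusted p = 0.0328, edgeR, 0.365 with the kit term). Ly6c1 rose too (1.65), and Opcml (-0.96) and Gap43 (-2.28), both genes of neural cell surfaces and growth cones, fell. With the kit term their adjusted p were 0.524, 0.112 and 0.181 (edgeR). Of the Wnt pathway genes Wnt5a, a non-canonical ligand, fell from 119 to 199 CPM at RT to 46.7 to 88.4 CPM in COLD (-1.35 ± 0.20, adjusted p = 0.005, edgeR, 0.0859 with the kit term). Tgfb2, a ligand of the TGF-β family, was at 103 to 201 CPM at RT against 46.8 to 59.9 CPM in COLD (-1.48 ± 0.21, adjusted p = 0.00445, edgeR, 0.0689 with the kit term).

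Postn and Plau, which fell over all experiments, were highest in the version 3 RT libraries. Postn, periostin of the matrix, was at 3762 and 1118 CPM in WT RT and KO RT against 238 and 532 CPM in C57 RT and 141 to 227 CPM in COLD. Plau, the urokinase gene, was at 240 and 241 CPM there, 36.8 and 44.3 CPM in C57 RT and 19.6 to 31.3 CPM in COLD. With the kit term their log2 differences were -0.88 and -0.54 in place of -2.17 and -2.10, and neither was called. Activated fibroblast markers, to which Postn belongs, summed to 3859 and 1157 CPM in WT RT and KO RT and 266 to 603 CPM in C57 RT.

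The sterol list was below RT for 22 of 24 members in C57 COLD. WT COLD lay above WT RT for 20 of 24 and KO COLD above KO RT for 16, against 50.4% and 46.9% of all genes tested. In the Adrb1 line the kit and the collection day change with temperature, so these directions cannot be ascribed to cold. edgeR called none over all experiments, with 5 at an unadjusted p under 0.05, and DESeq2 called 0. The difference between the lines was not tested.

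The comparison of CL for 4 days with RT in C57 mice shares its RT libraries with the cold comparison. ASC2 cells had more Cthrc1, Prg4, H19, Prrx2, Hp, Serpina3n and C4b, and less Ighm. edgeR called 13 of 11166 genes (0.116%), 11 higher (0.0985%) and 2 lower (0.0179%), and 93 with the replicate block, all 13 kept. Without C57 RT replicate 1 it called 0, without C57 RT replicate 2 it called 1, and without C57 CL replicate 2 it called 182.

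Cthrc1, a secreted protein of activated fibroblasts, was at 6.36 and 7.13 CPM in RT and 1215 and 185 CPM in CL, a log2 difference of 6.72 ± 0.84 (SE, adjusted p = 0.0342, edgeR). C57 COLD stood at 28.6 and 27.7 CPM (2.02 ± 0.79, adjusted p = 0.454). Cthrc1 counts were detected in 34.6% and 8.62% of thinned ASC2 cells in CL and in 0.461% and 0.641% at RT, so both level and spread differed between the CL replicates. The 4 activated fibroblast markers (Cthrc1, Postn, Prg4 and Tnc) summed to 2380 and 1072 CPM in ASC2 cells of the CL libraries against 266 and 603 CPM in C57 RT, a sum that includes Cthrc1 and Prg4 themselves. Of the remaining markers Postn was at 680 and 582 CPM in CL against 238 and 532 CPM in RT, and the part of activated fibroblasts in these values was not tested. The limit on Lrrc15, another gene of activated fibroblasts, had already removed 131 cells from CL replicate 1 and 26 from replicate 2. Prg4 was at 478 and 303 CPM in CL (3.56 ± 0.41, adjusted p = 0.0342). The non-coding growth-related RNA H19 was at 32.4 and 51.6 CPM at RT against 295 and 119 CPM in CL (2.51 ± 0.34, adjusted p = 0.0404), and the homeobox gene Prrx2 at 24.3 and 35.3 against 116 and 62.6 CPM (1.78 ± 0.24, adjusted p = 0.0408).

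Hp was at 114 and 66.6 CPM in CL (4.89 ± 0.33, adjusted p = 0.00149, edgeR), and Serpina3n at 298 and 116 CPM against 23.2 and 25.6 CPM at RT (3.18 ± 0.38, adjusted p = 0.0342). C4b was at 309 and 264 CPM in CL (2.44 ± 0.32, adjusted p = 0.037). Saa3 had 1843 and 423 counts in CL, or 645 and 44.5 CPM, and an adjusted p of 0.0837 (0.0261 with the replicate block). Chchd10, Cox7a1, Apoc1 and Cfd, genes abundant in adipocytes, rose as well, to at most 45.9 CPM each, while the brown adipocyte markers summed to 644 and 588 CPM in CL. The part of adipocyte RNA in these 4 was not tested.

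Ighm fell to 5.33 and 4.06 CPM under CL (-2.72 ± 0.29, adjusted p = 0.0342, edgeR). Of 24 sterol genes, 23 were negative, with a median log2 difference of -1.03. For 20 of the 24 both CL libraries were below both RT libraries, as for 25.6% of all genes. The collagen list holds 16 of the collagen genes, and these were positive with a median of 0.56. edgeR called 0, with 1 at an unadjusted p under 0.05, and DESeq2 called 0. Col6a6, which the list does not hold, was at 38.6 and 31.2 CPM under CL (-0.16 ± 0.17, adjusted p = 0.791, edgeR).

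Under CL edgeR called 0 of the 36 interferon list genes, with 19 at an unadjusted p under 0.05. DESeq2 called 3, and 1 was called with the replicate block (Irf7) and 7 without C57 CL replicate 2. The median log2 difference of the list was 0.76, with 31 of 36 positive. Irf7 was at 344 and 150 CPM in CL, above both RT libraries and below both COLD libraries (2.50 ± 0.40, adjusted p = 0.0837, edgeR, 0.0407 with the block). The share of ASC2 cells with at least 2 interferon list counts was 84.6% and 76.0% in CL, 13.3 points above RT (exact permutation p = 0.333, the smallest possible with 2 against 2).

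Set against each other, COLD and CL differed by 1 called gene of 11166 (0.00896%), and by 13 with the replicate block. The 1 gene was H19, at 19.1 and 19.4 CPM in COLD against 295 and 119 CPM in CL (log2 -3.51 ± 0.35, SE, adjusted p = 0.0444, edgeR). Leaving out any of the C57 RT or COLD libraries ended that call. All 36 interferon list genes were higher in COLD than in CL, with a median log2 difference of 1.00, and both COLD libraries lay above both CL libraries for 32 of them. Over all genes tested that held for 33.5%. Of the 36, edgeR called 0, with 29 at an unadjusted p under 0.05, 1 called with the replicate block and 4 by DESeq2. Of the 16 collagen list genes 13 were lower in COLD, with a median of -0.75, and edgeR called 0, with 5 at an unadjusted p under 0.05 and 2 called by DESeq2.

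Deletion of Adrb1 in PDGFRA-expressing cells was compared in ASC2 cells of the Adrb1 line, as the KO minus WT term of the model over all experiments, with 1 library for each genotype at each temperature. edgeR's quasi-likelihood test called 0 of 11673 genes (0%). At an unadjusted p under 0.05 there were 134, and DESeq2 called 0. Irf7 differed by 0.11 ± 0.47 on the log2 scale (SE) and Hp by -1.74 ± 0.59, both with an adjusted p of 1 (edgeR). The 36 interferon list genes had a median log2 difference of 0.36 and the 30 progenitor genes 0.12, given as a description with no test. With 1 library for each genotype and temperature, only a large difference could be detected.

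Whether the response of ASC2 cells differed from that of their neighbours was tested as an interaction of class and condition in the C57 libraries. Against ASC1 cells, gated by Col5a3, Cxcl14 and Bmper, 695 of 12233 genes (5.68%) differed in their cold response, 404 in the direction of ASC2 cells (3.3%) and 291 in that of ASC1 cells (2.38%). Under CL 75 differed (0.613%), 36 toward ASC2 cells (0.294%) and 39 toward ASC1 cells (0.319%). Against ASC3 cells 52 of 11575 (0.449%) differed in cold, 32 toward ASC2 cells (0.276%) and 20 toward ASC3 cells (0.173%), and 34 (0.294%) under CL, 25 (0.216%) and 9 (0.0778%). The same RT libraries serve both conditions. These counts moved with single libraries. Against ASC1 cells in cold the count was 421 and 394 without C57 RT replicates 1 and 2 and 363 and 319 without C57 COLD replicates 1 and 2. Under CL it was 227 and 31 without C57 RT replicates 1 and 2, 121 without C57 COLD replicate 1, and 32 and 240 without C57 CL replicates 1 and 2. Against ASC3 cells it was 96 in cold without C57 RT replicate 1, and 18 to 64 under CL over the 6 libraries left out in turn. The smaller count against ASC3 cells is not a test of likeness, since ASC3 cells gave 141652 to 2173796 counts per library.

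Complement genes differed in response from both classes. C4b differed in cold by 2.37 ± 0.18 on the log2 scale from ASC1 cells (SE, adjusted p = 3.26e-05, edgeR) and by 3.59 ± 0.29 from ASC3 cells (adjusted p = 1.68e-09). In ASC1 cells C4b was at 61.2 and 56.7 CPM at RT against 79.6 and 78.3 CPM in COLD. In ASC3 cells it was at 410 and 304 CPM at RT against 187 and 255 CPM in COLD, where ASC2 cells reached 426 and 425 CPM. C2, Cfb and Clu, which encode a protease, factor B and clusterin, also differed from both classes in the direction of ASC2 cells, so that 5 of 10 complement genes differed from ASC1 cells and 4 of 10 from ASC3 cells, none in the other direction. Cp, ceruloplasmin, did so too, by 1.63 and 1.79.

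For sterol synthesis, 16 of 25 genes differed between ASC2 and ASC1 cells in cold, all in the direction of ASC2 cells, with a median difference of 1.29 against 0.01 for all genes. Under CL the count was 6 of 25. Sc5d, a late step of cholesterol synthesis, was at 235 and 244 CPM in ASC1 cells at RT and 49.6 and 37.8 CPM in COLD. In ASC2 cells it was at 49.2 and 45.1 CPM at RT against 45.8 and 26.9 CPM in COLD, a difference in response of 1.94 ± 0.19 (adjusted p = 0.000121, edgeR). ASC1 cells started higher and ended at levels near those of ASC2 cells, and edgeR called 0 of 25 sterol genes for a difference from ASC3 cells, with 0 at an unadjusted p under 0.05 and no other tool run.

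Adm gave a large difference as well, 3.84 ± 0.34 from ASC1 cells (SE, adjusted p = 6e-05, edgeR) and 2.77 ± 0.24 from ASC3 cells (adjusted p = 3.28e-09). It went from 126 and 129 CPM to 22.1 and 18.8 CPM in ASC1 cells and from 199 and 394 CPM to 118 and 75.6 CPM in ASC3 cells, while ASC2 cells rose. Postn went the other way, by -5.16 ± 0.42 and -3.48 ± 0.30. In ASC1 cells it was at 45.3 and 35.0 CPM at RT against 751 and 833 CPM in COLD, against 238 and 532 and then 214 and 168 CPM in ASC2 cells. Il33, an alarmin, differed in the same direction from both classes, and Wnt2 from ASC3 cells.

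Of the 36 interferon list genes, 1 differed from ASC1 cells in cold toward ASC2 cells (Irf9) and 4 toward ASC1 cells (Cxcl10, Ifi27l2a, Irf1 and Usp18). Their median difference was -0.04. Among all genes tested 3.3% differed toward ASC2 cells and 2.38% toward ASC1 cells. Against ASC3 cells 1 of 36 differed, Rsad2, toward ASC3 cells, as did 0.173% of all genes. Of the 30 progenitor genes, Cd248, Fn1 and Uchl1 differed from ASC1 cells toward ASC1 cells and Tppp3 toward ASC2 cells, beside the same 2.38% and 3.3% of all genes. Cd248 was at 64.1 and 31.7 CPM in ASC1 cells at RT and 148 and 109 CPM in COLD, against 1114 and 1072 and then 949 and 880 CPM in ASC2 cells. Under CL all 30 progenitor genes had negative differences, with a median of -1.13, while 50.8% of all genes were positive. Of the 30, 3 were called (Cadm3, Cd248 and Ly6c1), against 0.319% of all genes called in that direction. The list's median log2 ratio of mean CPM plus 1, CL to RT, was 0.61 in ASC1 cells and -0.48 in ASC2 cells. Some of these genes were near 0 in ASC1 cells, such as Bmp7 and Aldh1a3 with medians of 0.628 and 1.95 CPM. The ASC1 gate depends on depth, and median counts per ASC1 cell were 5123 and 1627 in C57 RT against 2056 and 4155 in C57 CL. What part this had in the differences was not tested. Haemoglobin genes, which mark red cells, were among the genes that differed from ASC3 cells, with Hbb-bs at 11.77, and erythroid markers in ASC2 cells summed to 123 to 271 CPM in the C57 replicate 1 libraries and 2.14 to 7.21 CPM in the replicate 2 libraries.

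**Figure D5:**
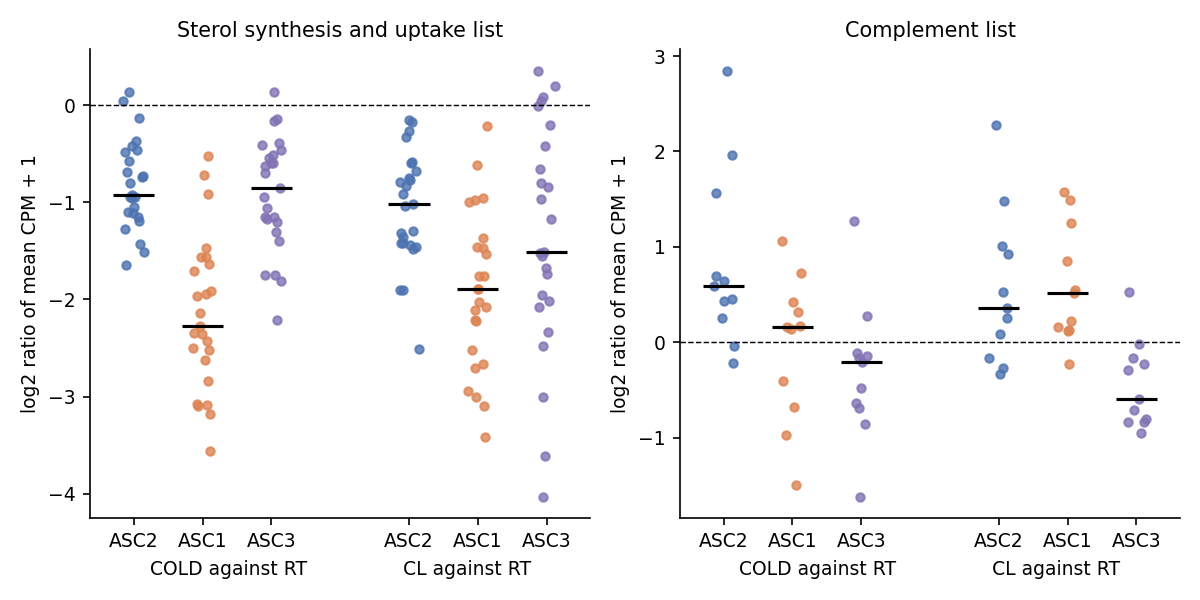
Log2 difference from RT (log2 ratio of mean CPM plus 1, C57, 2 libraries per condition) of sterol and complement list genes in ASC2, ASC1 and ASC3 cells after cold and under CL (points are genes, lines are medians). The cold median of the sterol genes was -0.93 in ASC2 cells and -2.27 in ASC1 cells, and that of the complement genes 0.59 in ASC2, 0.16 in ASC1 and -0.20 in ASC3 cells.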

How the data were processed

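Single-cell RNA-seq (10x Chromium) of Lin- and Lin+ iBAT stromal vascular cells was aligned to mm10 by the authors with Cell Ranger 3.0.1 (from the submitters' processing notes), and background RNA was subtracted with SoupX, which took Fabp4 and Car3 as markers of free RNA. The deposited matrices therefore hold expected counts, of which 97.2% to 99.6% of the entries above 0 were not whole, and levels of such genes depend on that correction. Cells were kept below 10% mitochondrial counts and 15000 total counts and with at least 500 genes, and the marker sums were applied to these values. Members, gene lists and tests were chosen with earlier results of these data known.

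Counts were summed over the ASC2 cells of each Lin- library, rounded to whole numbers and fitted with edgeR 4.0.16 (quasi-likelihood, TMM, filterByExpr, Benjamini-Hochberg over all genes tested, adjusted p under 0.05) in R 4.3.3. The 6 C57 libraries, or all 10, shared a single spread estimate, and "called" means past that threshold. The 95% intervals of counts are exact and cover counting error only. Shares used exact permutation tests over libraries (SciPy 1.17.1), without regard to line, after thinning cells to 1000 counts. Interferon shares kept the 10843 ASC2 cells that deep and left out 378, and for the ASC2 share the marker sums were applied again to the thinned counts, which 9009 cells passed. Named genes were the 15 largest rises and 10 largest falls among called genes without overlap and with at least 20 CPM in the higher group, up to 4 called members of each list (otherwise the 2 most abundant), the progenitor genes and Adrb1. Gbp7, Gbp2, Ubd, Adm, Isg15 and the genes named for differences between classes were added after their values were seen. Same-numbered C57 libraries came from the same replicate experiment per the study's methods. Their deviations from group means correlated at 0.223 (RT and COLD), -0.0358 (RT and CL) and 0.265 (COLD and CL) over 11166 genes. Replicates differed beyond sampling noise, with a chi-square of 9.42 to 29.2 for each degree of freedom. Alternatives were DESeq2 1.42.0 size factors and tests, no filter on low counts, marker sums of 2 and 5, thinning, removal of doublet-like cells, the replicate block and leaving out each library. Scripts were tested on simulated data. Lin+ libraries entered no comparison. A gene among those called is not reported here.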

Additional observations from a re-analysis of the deposited data

Results flagged for a closer look

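In groups of 4 libraries (4 RT or 4 COLD over both lines), 5 of 54 groups examined held a library far from the other 3, where chance gives about 1 in 20. Ifit3 was highest at RT in C57 RT replicate 2 at 29.3 CPM, still below every COLD library. Adipoq was highest in COLD in C57 COLD replicate 1 at 82.8 CPM, the library with the highest sum of brown adipocyte markers. Gap43 was lowest in COLD in the same library at 9.77 CPM. Kcnn3, a potassium channel gene, was highest in COLD in KO COLD at 11.5 CPM, and Lcn2 in WT COLD at 29.4 CPM.

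Responses of ASC2 cells differed from those of other stromal classes by the interaction test in C57 mice, with 695 genes called for cold and 75 for CL against ASC1 cells, and 52 for cold and 34 for CL against ASC3 cells. Leaving out 1 library gave 319 to 817, 31 to 240, 45 to 96 and 18 to 64.

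The Lin+ libraries, which no comparison used, held 60 cells that passed the ASC2 sums. C57 CL replicate 2 held 45 of them, WT COLD 5, C57 COLD replicate 1 4, C57 RT replicate 2 2, and C57 RT replicate 1, C57 CL replicate 1, WT RT and KO COLD 1 each. The source of the 45 was not tested.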

How the results depend on the processing

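Genes called for cold, CL and COLD against CL in C57 ASC2 cells (45, 13 and 1) were 113, 93 and 13 with the replicate block, 111, 62 and 29 with DESeq2, and 420, 428 and 256 with no filter on low counts. A marker sum of 5 gave 28, 7 and 0, and thinning to 1000 counts 17 for cold. COLD against CL gave 0 with a marker sum of 2 and without doublet-like cells. The calls for cold and CL were all kept with the block, DESeq2 and no filter. Leaving out 1 library gave 0 to 110 calls for cold, 0 to 182 for CL and 0 to 30 for COLD against CL. For cold these were 5 without C57 RT replicate 1, 0 without C57 RT replicate 2, 17 without C57 COLD replicate 1, 7 without C57 COLD replicate 2, 110 without C57 CL replicate 1 and 103 without C57 CL replicate 2. For COLD against CL, 0 were called without either C57 RT library or either C57 COLD library, 7 without C57 CL replicate 1 and 30 without C57 CL replicate 2. Where 1 library remained in a group, it was assumed to vary like the others.

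Over all experiments the 791 calls for cold became 47 with the kit term (chosen after the data were seen) and 2047 with no filter. Leaving out 1 library gave 106 to 1039, with 473 without C57 COLD replicate 2, 111 without WT RT, 106 without KO RT, 112 without WT COLD and 113 without KO COLD. The KO against WT count of 0 was 47 with no filter and 0 without each library in turn. Of the named genes Fbn2 changed direction, to 0.17 with the kit term from -4.98, on 0.258 to 1.22 CPM in C57 RT. For 27 named genes of the C57 cold comparison, 351 refits kept the direction and 121 lost the call. For 13 of the CL comparison 44 of 169 did, and for 65 over all experiments 219 of 843.

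The class differences were 1161 and 444 (cold and CL, against ASC1) and 85 and 66 (against ASC3) with no filter, and 17 for CL against ASC3 with sums thinned to equal depth. Leaving out 1 library gave 319 to 817, 31 to 240, 45 to 96 and 18 to 64. Against ASC1 in cold the count was 421 without C57 RT replicate 1, 394 without C57 RT replicate 2, 363 without C57 COLD replicate 1 and 319 without C57 COLD replicate 2. Against ASC1 under CL it was 227 and 31 without the C57 RT libraries, 121 without C57 COLD replicate 1, and 32 and 240 without the C57 CL libraries. Against ASC3 it was 96 for cold without C57 RT replicate 1, and for CL 53 and 56 without the C57 RT libraries, 64 and 60 without the C57 COLD libraries and 18 without C57 CL replicate 1. The cause was not tested.

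The difference in the share of cells with interferon list counts was 26.0 to 31.7 points without each library (26.3 without C57 COLD replicate 2), where 3 against 4 cannot reach the threshold, and 12.1 and 49.97 points at limits of 1 and 4 counts. The difference in the ASC2 share in cold was -12.4 to -2.95 points over the other settings and -9.39 to -3.57 without each library, and under CL 1.48 to 11.9. The replicate block ended no call in the 3 C57 comparisons of ASC2 cells. Depth limits genes near 0, such as Adrb1, and whether it limits the ASC3 comparisons was not tested.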
